A study of Mus musculus with 16 samples.

Results

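Extracellular vesicles (EVs) prepared from serum of saline-treated mice were compared with EVs prepared from medium of RAW264.7 macrophages cultured with saline, by sequencing of their microRNAs (miRNAs). The comparison holds 2 of the 16 samples of the study, 1 library from each source, and was chosen by sample title. All 941 miRNA names of the EV count table were members, and the 144 names with at least 50 reads over both libraries were compared name by name. The serum came from female BALB/c mice aged 8 to 9 weeks that had saline in place of concanavalin A (Con A), a plant lectin that causes hepatitis in mice. The labels do not say how many mice gave serum to the library. The RAW EVs came from RAW264.7, a tumour-derived macrophage line of male BALB/c origin, after 24 h with saline in medium freed of EVs, and the line was otherwise kept in fetal bovine serum. Serum was cleared at 16500 g and EVs were pelleted at 208000 g for 70 min, whereas medium was passed through a 0.2 µm filter and EVs were pelleted at 175000 g for 4 h. Source and preparation therefore cannot be told apart, and with 1 library a source there is no replicate check and no p-value. The study's other samples were EVs from the same sources after Con A, 1 library each, and RAW264.7 cells given PBS or EVs before Con A.

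A miRNA is cut from a hairpin transcript, and usually 1 of the 2 arms of the hairpin is kept by an Argonaute protein while the other arm is mostly degraded. The kept strand finds messenger RNAs through its seed, the bases near its 5′ end, so miRNAs with the same seed form a family with overlapping targets. EVs carry miRNAs out of cells, and blood holds vesicles and other particles from blood cells, vessel walls, liver and further organs, so that tissue-restricted miRNAs are used as traces of their source. Macrophages are rich in miR-21a and in let-7 miRNAs.

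The mature sequences below, from RefSeq for GRCm38.p6 and written 5′ to 3′ with the seed (bases 2 to 8) in capitals, belong to miRNAs on which the results turn. The let-7 and miR-21a strands were the most abundant in RAW EVs, miR-148a-3p and miR-451a were among the most abundant in serum EVs, and miR-152-3p shares the seed of miR-148a-3p. miR-192-5p and miR-215-5p share a seed and were both higher in serum EVs. The pairs from the miR-25 and miR-27a hairpins are the opposite arms that differed in opposite directions. The last 4 had ratios among the lowest of all names compared.
let-7i-5p: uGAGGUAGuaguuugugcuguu
let-7f-5p: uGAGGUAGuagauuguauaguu
miR-21a-5p: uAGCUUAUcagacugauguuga
miR-148a-3p: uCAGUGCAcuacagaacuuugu
miR-152-3p: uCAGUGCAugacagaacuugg
miR-451a: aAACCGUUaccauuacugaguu
miR-192-5p: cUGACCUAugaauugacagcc
miR-215-5p: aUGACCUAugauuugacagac
miR-25-3p: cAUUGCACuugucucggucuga
miR-25-5p: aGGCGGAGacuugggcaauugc
miR-27a-3p: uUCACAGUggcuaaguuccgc
miR-27a-5p: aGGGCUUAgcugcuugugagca
miR-9-5p: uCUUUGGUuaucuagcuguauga
miR-139-3p: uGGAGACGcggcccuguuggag
miR-365-2-5p: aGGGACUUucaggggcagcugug
miR-3535: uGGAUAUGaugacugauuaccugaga
Of the 941 names 803 matched an entry of the sequence table, as did 125 of the 144 compared. Further names that the results turn on are miR-122-5p, miR-143-3p, miR-150-5p, miR-375-3p, miR-486a-5p and miR-486b-5p.

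The serum library held 132130 miRNA reads on 417 names and the RAW library 114791 reads on 419 names. Levels are given as reads or as CPM, the usual counts-per-million scaling to all miRNA reads of the library, and 0 reads allows a level of up to 22.7 CPM in the serum library and 26.1 CPM in the RAW library (3 reads). Ratios are serum over RAW, with a 95% interval from the exact conditional test of 2 read counts, and shares have Wilson intervals. Both cover counting error only. Reads were found in both libraries for 276 names, in serum EVs alone for 141 and in RAW EVs alone for 143, while 381 names had none. The 416 names with 1 to 49 reads over both libraries were not compared, and the highest of those seen in 1 library had 46 reads (serum) and 33 reads (RAW). The 144 names compared held 98.7% of the reads of each library.

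Serum EVs were led by miR-148a-3p and the hepatocyte miRNA miR-122-5p, and RAW EVs by let-7i-5p, let-7f-5p and miR-21a-5p. miR-148a-3p, which represses the DNA methyltransferase DNMT1, held 12.0% of serum reads (95% interval 11.8 to 12.2) and 1.91% of RAW reads (1.83 to 1.99). let-7i-5p held 8.00% of serum reads (7.85 to 8.15) and 24.3% of RAW reads (24.0 to 24.5). The serum cargo was spread over more miRNAs. 8 names made up 50% of its reads, against 3 names in RAW EVs, and the 10 most abundant names held 58.2% of serum reads and 73.5% of RAW reads. The effective number of miRNAs, the exponent of the Shannon entropy of the shares, was 39.4 in serum EVs and 22.5 in RAW EVs. Of the 20 most abundant names in each library, 9 were shared, 45.0% of each list. Across the 144 names the levels in serum and RAW EVs had a Spearman rho of 0.45, a description of 2 libraries whose names share the scaling to the same totals.

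Of the 144 names compared, 40 (27.8%) were at least 4-fold higher in serum EVs and 28 (19.4%) at least 4-fold higher in RAW EVs, 47.2% in all. The remaining 76 lay within 4-fold. The minimum itself favours differences, since a name nearly absent in 1 library could be compared only if it was high in the other. Of the 54 names with at least 50 reads in 1 library only, 42 were at least 4-fold apart and 12 within 4-fold. Among the 76 names with at least 50 reads in each library 14 were at least 4-fold higher in serum EVs and 9 in RAW EVs. The median log2 ratio was 0.18, with quartiles of -1.45 and 2.25. The 40 names higher in serum held 56.0% of serum reads and 4.56% of RAW reads, and 4 of them had no read in RAW EVs. The 28 names higher in RAW EVs held 3.07% of serum reads and 24.0% of RAW reads, and 3 of them had no read in serum EVs. The authors' deposited normalized values use another scaling, which lowers every log2 ratio by 3.07 and leaves 14 names at least 4-fold higher in serum and 92 in RAW EVs. A name with a log2 ratio between 0 and 3.07 therefore changes sides with it. This holds for 49 of the 76 names above 0 and 12 of the 16 list medians above 0. What that scaling counts is not stated, so ratios here are shares of miRNA reads. The plot of levels shows that the names higher in serum included several of the most abundant of that library, while of the most abundant in RAW EVs most lay within 4-fold.

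**Figure D1:**
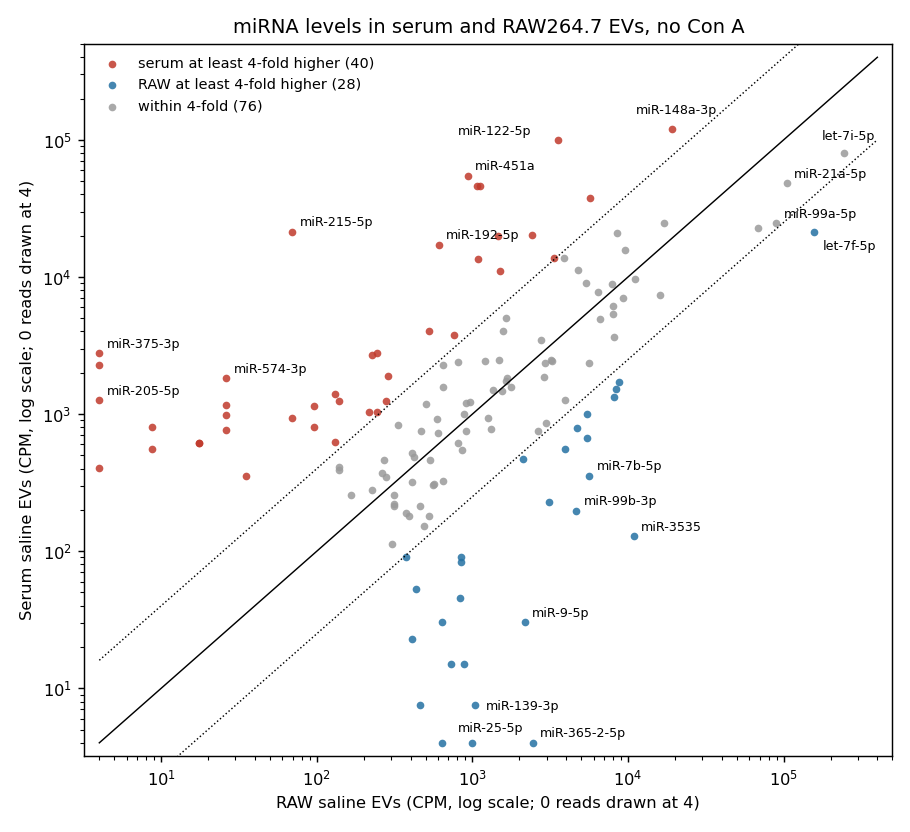
Level of each of the 144 compared miRNAs in serum saline EVs (vertical, CPM, log scale) and RAW saline EVs (horizontal, CPM, log scale), 1 library each, with 0 reads drawn at 4 CPM. The solid line marks equal levels and the dotted lines 4-fold, and 40 names lie above the upper dotted line, among them miR-122-5p and miR-451a, and 28 below the lower one, among them let-7f-5p and miR-9-5p.

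Erythrocyte miRNAs made up a large share of serum reads and a small share of RAW reads. The 7 names of the list held 15.1% of serum reads (14.9 to 15.3) and 0.352% of RAW reads (0.319 to 0.388), a 42.9-fold ratio (95% interval 38.9 to 47.4). miR-451a, which Argonaute 2 cuts without Dicer in red cell precursors, had 7228 reads in serum EVs and 107 in RAW EVs, 58.7-fold more by CPM (48.5 to 71.7). miR-486a-5p had 6083 reads in serum EVs and 129 in RAW EVs, and miR-486b-5p 6083 and 123 reads. Both names stand for opposite strands of 1 locus with the same mature sequence, so their reads may have been counted under both or divided, and they are not independent. Without miR-486b-5p the list held 13860 reads in serum EVs and 281 in RAW EVs, 10.5% and 0.245% of the same totals. miR-144-3p, which shares a transcript with miR-451a, had 186 reads in serum EVs and 15 in RAW EVs (10.8-fold, 6.37 to 19.6), while its opposite arm miR-144-5p had 49 and 30 reads and a log2 ratio of 0.50. Of the 6 members compared, 5 were at least 4-fold higher in serum, among them both miR-486 names, beside 27.8% of all names, and 0 in RAW EVs, with a median log2 ratio of 5.39 against 0.18 over all names. Of these 5, miR-144-3p and miR-486a-3p (303 reads in serum EVs and 0 in RAW EVs) met the minimum through the serum library alone.

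Liver and gut miRNAs were also far higher in serum EVs. miR-122-5p had 13152 reads in serum EVs, 9.95% of the library (9.79 to 10.1), and 405 reads in RAW EVs, 0.353% (0.320 to 0.389), a 28.2-fold ratio (25.6 to 31.2). miR-192-5p, made in liver, gut and kidney, had 2267 reads in serum EVs and 70 in RAW EVs (28.1-fold, 22.2 to 36.2). miR-215-5p, which shares its seed, had 2819 reads in serum EVs and 8 in RAW EVs, the highest ratio among names with reads in both libraries (306-fold, 155 to 710). miR-194-5p, which lies beside miR-192 at 1 locus and beside miR-215 at another, had 150 reads in serum EVs and 11 in RAW EVs (11.8-fold, 6.43 to 24.2). The 5 hepatocyte names in the table held 15572 reads in serum EVs and 486 in RAW EVs, 27.8-fold more (25.4 to 30.5), and 3 of 3 compared passed 4-fold, beside 27.8% of all names. Of these 3, miR-194-5p met the minimum through the serum library alone. miR-122-5p alone held most of the reads of the list, and miR-122-3p and miR-802-5p had 2 and 1 reads in serum EVs and none in RAW EVs. The miR-148/miR-152 family, which shares 1 seed and is not restricted to liver, held 16245 reads in serum EVs and 2296 in RAW EVs (6.15-fold, 5.88 to 6.42), a direction that the authors' scaling turns. Of its 3 compared members miR-148a-3p had a log2 ratio of 2.65, miR-152-3p of 2.15 and miR-148b-3p of 1.28.

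Epithelial and islet miRNAs were nearly confined to serum EVs among these 2 libraries. Their 8 names had 941 reads in serum EVs and 11 in RAW EVs, a 74.3-fold ratio (41.3 to 149). The 5 names that could be compared passed the minimum through the serum library alone, so their number on the serum side was fixed by it. miR-375-3p, abundant in pancreatic islets and in endocrine cells of the gut, had 368 reads in serum EVs and none in RAW EVs, at least 107-fold more with a floor of 3 reads in the RAW library. miR-205-5p, a miRNA of stratified epithelium, had 167 reads in serum EVs and none in RAW EVs, at least 48.4-fold more. miR-203-3p, known from keratinocytes, had 155 reads in serum EVs and 3 in RAW EVs (44.9-fold, 15.1 to 220). miR-200a-3p, which represses the mesenchymal factors ZEB1 and ZEB2, had 129 reads in serum EVs and 3 in RAW EVs (37.4-fold, 12.5 to 184).

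Muscle, vessel, stromal and lymphocyte miRNAs moved the same way, with smaller read numbers. The 7 muscle names had 322 reads in serum EVs and 20 in RAW EVs (14.0-fold, 8.91 to 23.2), with 164 and 16 for miR-1a-3p and 81 and 2 for the skeletal muscle miRNA miR-206-3p. The stromal and smooth muscle list had 2033 reads in serum EVs and 158 in RAW EVs (11.2-fold, 9.50 to 13.2). Most of these were miR-143-3p, known from smooth muscle, with 1787 reads in serum EVs and 124 in RAW EVs (12.5-fold, 10.4 to 15.1). miR-150-5p, a miRNA of mature lymphocytes, had 358 reads in serum EVs and 26 in RAW EVs (12.0-fold, 8.03 to 18.6). The endothelial miR-126a-3p had 1817 reads in serum EVs and 386 in RAW EVs, just past the 4-fold limit (4.09-fold, 3.66 to 4.58), and lies on the RAW side with the authors' scaling. Among compared members of these lists, only miR-143-3p and miR-126a-3p had at least 50 reads in each library. miR-1a-3p, miR-206-3p, miR-150-5p, miR-199a-3p (137 and 25 reads), miR-126a-5p (82 and 15) and miR-223-5p (106 and 11) met the minimum through the serum library alone. Their side was thus partly fixed by it. The list of neuronal miRNAs rested on miR-128-3p, which had 1473 and 544 reads and a log2 ratio of 1.23, within 4-fold.

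Several further miRNAs were also at least 4-fold higher in serum EVs. miR-486a-3p, the opposite arm of miR-486a-5p and already counted in the erythrocyte list, had 303 reads in serum EVs and none in RAW EVs (at least 87.7-fold). miR-574-3p had 241 and 3 reads (69.8-fold, 23.6 to 341). Both, like miR-22-3p below, met the minimum through the serum library alone. miR-140-3p, from a hairpin best known in cartilage, had 2608 reads in serum EVs and 167 in RAW EVs (13.6-fold, 11.6 to 16.0). miR-22-3p had 369 and 28 reads (11.4-fold, 7.79 to 17.5), and miR-27a-3p 2671 and 279 (8.32-fold, 7.35 to 9.44, log2 ratio 3.06). miR-25-3p, of a cluster that favours cell growth, had 4967 reads in serum EVs and 653 in RAW EVs (6.61-fold, 6.09 to 7.18), and miR-181a-5p, which tunes lymphocyte signalling, 532 and 60 (7.70-fold, 5.89 to 10.2). These 3 lie on the RAW side with the authors' scaling.

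The let-7 family, whose members restrain growth genes such as Ras and are blocked by LIN28, made up nearly as much of the RAW cargo as all other miRNAs together. Its 9 members held 18993 serum reads, 14.4% (14.2 to 14.6), and 56510 RAW reads, 49.2% (48.9 to 49.5). They did not differ evenly. let-7f-5p had 2807 reads in serum EVs and 17862 in RAW EVs, 7.32-fold higher in RAW (7.04 to 7.62). let-7i-5p had 10568 reads in serum EVs and 27845 in RAW EVs, 3.03-fold higher in RAW (2.97 to 3.10), and let-7g-5p had 3023 and 7844 reads (2.99-fold, 2.86 to 3.12). In contrast let-7a-5p, with 931 and 1065 reads, had a log2 ratio of -0.40, and let-7b-5p, with 461 and 315 reads, a log2 ratio of 0.35. The least abundant member with a call, let-7e-5p, had 7 reads in serum EVs and 50 in RAW EVs, and met the minimum through the RAW library alone. Of the 9 members 3 (let-7e-5p, let-7f-5p and miR-98-5p) passed 4-fold, all higher in RAW EVs, beside 19.4% of all names, with a list median of -1.58. These strands differ from each other by few bases, and how the authors assigned reads that match several of them is not stated, so the split among members is uncertain while the family sum is less so.

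miRNAs related to miR-99, among them the cluster of miR-99b, let-7e and miR-125a, which include repressors of mTOR, were lower in serum EVs in sum, though not in every member. The 8 names held 3819 serum reads, 2.89% (2.80 to 2.98), and 12231 RAW reads, 10.7% (10.5 to 10.8). Most of these were miR-99a-5p, with 3262 reads in serum EVs and 10300 in RAW EVs, 3.63-fold higher in RAW (3.49 to 3.78) and thus within the 4-fold limit. miR-99b-5p had 175 and 931 reads (6.12-fold higher in RAW, 5.21 to 7.24), and miR-99b-3p, from the other arm of its hairpin, 26 and 534 (23.6-fold, 16.0 to 36.5). In contrast miR-100-5p, with the seed of miR-99b-5p, was higher in serum EVs, at 923 CPM against 592 CPM in RAW EVs. miR-125b-5p had a log2 ratio of -0.43. 4 of the 8 were at least 4-fold higher in RAW EVs, beside 19.4% of all names, and 0 in serum EVs, with a median log2 ratio of -2.24. Of these 4, miR-99b-3p, let-7e-5p and miR-125a-3p (1 and 53 reads) met the minimum through the RAW library alone, so their number was partly fixed by it.

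The miR-221/miR-222 cluster and the miR-7 family were lower in serum EVs as well, while the Mir17hg list was divided. The miR-221/miR-222 cluster, which represses the cell cycle inhibitor CDKN1B, had 241 reads in serum EVs and 1250 in RAW EVs, 5.97-fold higher in RAW (5.20 to 6.88), and 3 of 3 compared members passed 4-fold, beside 19.4% of all names. Of these 3, miR-221-5p (4 and 73 reads) met the minimum through the RAW library alone. miR-221-3p had 133 reads in serum EVs and 626 in RAW EVs, and miR-222-3p, which has the same seed, 104 and 543. The miR-7 family had 249 reads in serum EVs and 1610 in RAW EVs (7.44-fold higher in RAW, 6.51 to 8.54), with 202 and 964 for miR-7a-5p and 47 and 646 for miR-7b-5p. The 14 names of Mir17hg and its paralogous clusters summed to 6541 reads in serum EVs and 2847 in RAW EVs (2.00-fold, 1.91 to 2.09, turned by the authors' scaling), with a median log2 ratio of 0.15. Of the 7 compared, miR-25-3p was at least 4-fold higher in serum, beside 27.8% of all names. miR-17-5p and miR-20a-5p were at least 4-fold higher in RAW EVs, beside 19.4%, and miR-17-5p met the minimum through the RAW library alone. miR-17-5p and miR-20a-5p, growth-promoting strands of the Mir17hg cluster, had 30 and 88 reads in serum EVs and 356 and 624 in RAW EVs. Their ratios were 13.7-fold higher in RAW (9.40 to 20.5) and 8.16-fold higher in RAW (6.52 to 10.3). miR-92a-3p of the same cluster was close to even, at 1183 reads in serum EVs and 908 in RAW EVs (log2 ratio 0.18). miR-103-3p had 73 reads in serum EVs and 451 in RAW EVs (7.11-fold higher in RAW, 5.54 to 9.24), and let-7j, listed apart from the let-7 family, 225 and 1001.

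Among names with at least 200 reads the lowest ratios belonged to miR-365-2-5p, miR-3535 and miR-9-5p. miR-365-2-5p had no read in serum EVs and 281 in RAW EVs, at least 108-fold higher in RAW with a floor of 3 reads in the serum library. It stood at 2448 CPM in RAW saline EVs, but at 14.8 CPM in RAW Con A EVs and a mean of 12.9 CPM in RAW264.7 cells given PBS. Its ratio thus rests on the 1 RAW saline library. miR-3535 had 17 reads in serum EVs and 1251 in RAW EVs, 84.7-fold higher in RAW (52.7 to 146). miR-9-5p, which bacterial lipopolysaccharide induces in human monocytes, had 4 reads in serum EVs and 248 in RAW EVs, 71.4-fold higher in RAW (27.5 to 264). miR-139-3p, with 1 read in serum EVs and 119 in RAW EVs (137-fold higher in RAW, 24.1 to 5455), had a lower ratio still, with fewer reads, and was picked with its values in view.

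Most miRNAs known from macrophages lay within 4-fold or were sparse. miR-21a-5p, abundant in macrophages, held 4.81% of serum reads (4.70 to 4.93) and 10.4% of RAW reads (10.3 to 10.6), 2.17-fold higher in RAW. miR-146a-5p, which limits NF-κB signalling, had 706 reads in serum EVs and 914 in RAW EVs (log2 ratio -0.58), and miR-146b-5p 479 and 936 (-1.17). miR-155-5p, which inflammatory signals induce, had 7 and 14 reads and was not compared. Of the 4 compared members of the list of inflammation-induced macrophage miRNAs 1, miR-9-5p, passed 4-fold, on the RAW side, beside 19.4% of all names. miR-9-5p met the minimum through the RAW library alone. The myeloid miRNAs were sparse in both sources, with 375 reads over 7 names in serum EVs and 100 in RAW EVs. miR-223-3p, abundant in granulocytes and platelets, had 101 reads in serum EVs and 3 in RAW EVs (29.2-fold, 9.73 to 144). miR-142a-3p, common to blood cells, had 109 reads in serum EVs and 38 in RAW EVs (log2 ratio 1.32).

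Several families were close to even, and the remaining lists differed more. Of the 6 compared members of the miR-30 family 0 passed 4-fold, beside 47.2% of all names in either direction. miR-30d-5p had 3285 reads in serum EVs and 1944 in RAW EVs (log2 ratio 0.55). miR-10a-5p had 1269 reads in each library, whereas miR-10b-5p, which differs little from it and has the same seed, had 1465 in serum EVs and 172 in RAW EVs (7.40-fold, 6.31 to 8.72), a ratio that the authors' scaling turns. The 3 compared miR-378 names lay between -1.12 and -0.88, and miR-191-5p and miR-425-5p at -0.41 and -0.40. The 12 Sfmbt2 cluster names in the table had 13 reads in serum EVs and none in RAW EVs. The miR-29 family summed to 692 reads in serum EVs and 207 in RAW EVs (2.90-fold), the miR-15/miR-16 family to 151 and 80 (1.64-fold), and the miR-23/miR-27/miR-24 clusters to 6085 and 1589 (3.33-fold). For miR-320, miR-484 and miR-877 the sums were 592 and 158 (3.26-fold), for the miR-322 cluster 237 and 68 (3.03-fold, median log2 ratio 2.03), and for the let-7 passenger strands 195 and 147 (1.15-fold). The miR-130/miR-301 list had 12 reads in serum EVs and 109 in RAW EVs (10.5-fold higher in RAW, 5.75 to 20.9). Most of its RAW reads were miR-130b-5p (6 and 95 reads), a 5p arm and the only name of the list compared. It met the minimum through the RAW library alone, so the ratio describes this name more than a family. The miR-183/miR-96/miR-182 cluster had 31 and 36, with none of its names compared. By list median, 9 of the 24 lists with at least 2 compared members were at least 4-fold higher in serum and 3 in RAW EVs. Several of these medians rest on names that met the minimum through 1 library alone, such as all compared epithelial and muscle names. With at least 200 reads, 2 list medians were at least 4-fold higher in serum and 2 in RAW EVs. The plot by list shows the list medians of the epithelial, erythrocyte and hepatocyte miRNAs farthest to the serum side and those of miR-7 and miR-221/miR-222 farthest to the RAW side, with the let-7 members spread over both sides of the 4-fold limit.

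**Figure D2:**
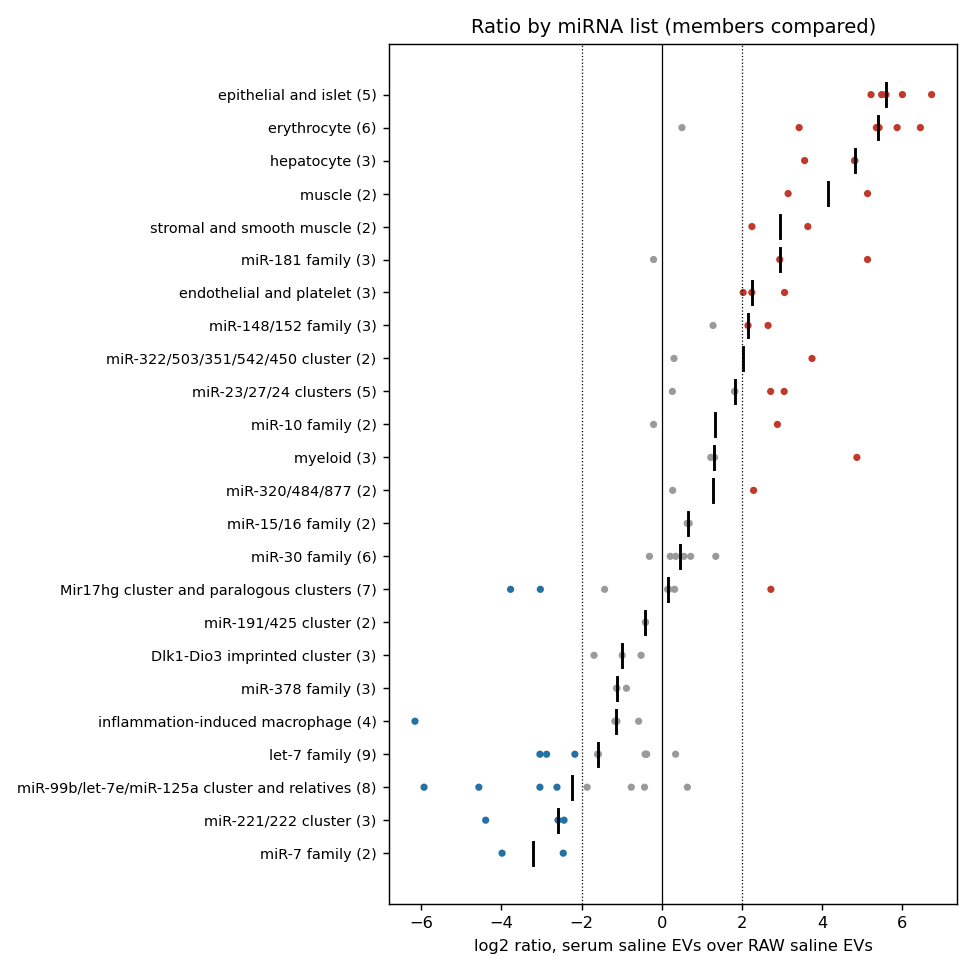
Log2 ratio of serum saline EVs over RAW saline EVs (horizontal) for the compared members of each miRNA list with at least 2 of them, 1 point a miRNA, with the number compared in brackets and the list median as a black bar. Red points are at least 4-fold higher in serum, blue points at least 4-fold higher in RAW, and dotted lines mark 4-fold. List medians run between 5.60 for epithelial and islet miRNAs and -3.22 for the miR-7 family.

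RAW264.7 cells of the same study show which of these miRNAs the line itself contained. The 3 libraries are from cells given PBS and then Con A for 16 h, so they differ from the producing cells of the saline EVs by Con A. Across the 144 names, cell levels had a Spearman rho of 0.36 with serum EVs and of 0.73 with RAW EVs. The 40 names higher in serum EVs had a median of 18.4 CPM in these cells, and 26 of them lay under 50 CPM and 12 had no read. The 28 names higher in RAW EVs had a median of 989 CPM, with 5 under 50 CPM. Over all 144 names the median was 884 CPM, with 35 under 50 CPM. Of the 68 compared names with at least 1000 CPM in the cells, 7 were at least 4-fold higher in serum EVs and 14 in RAW EVs. Over all 144 names the shares were 27.8% and 19.4%, so the RAW count lay near the share of all names. The median log2 ratio of the 68 was -0.39.

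RAW EVs nevertheless held miRNAs that the cells hardly contained. Of the 127 names with at least 100 CPM in RAW EVs, 21 were under 50 CPM in the cells and 9 of these had no read among the 833361 reads of the 3 cell libraries. The 21 names held 39.9% of serum EV reads and 3.56% of RAW EV reads. Of the 21, 12 were at least 4-fold higher in serum EVs and 5 in RAW EVs, beside 27.8% and 19.4% of all 144 names. The RAW count thus lay near the share of all names. miR-148a-3p was the largest of the 21, at 19078 CPM in RAW EVs and 18.1 ± 8.38 CPM in the cells (mean ± SD, n = 3). miR-122-5p stood at 3528 CPM in RAW EVs and 19.4 ± 9.08 CPM in the cells. miR-451a, miR-486a-5p, miR-143-3p and miR-150-5p stood at 932, 1124, 1080 and 226 CPM in RAW EVs and had no read in the cells. Among miRNAs of the Dlk1-Dio3 imprinted cluster, miR-127-3p, miR-379-5p and miR-381-3p had 20, 25 and 29 reads in serum EVs and 56, 43 and 36 in RAW EVs, and 14 of 14 names of the cluster had no read in the cells. Where the reads of these 21 names in RAW EVs came from was not tested.

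The reverse was seen too. miR-7a-5p stood at 8398 CPM in RAW EVs and 35528 ± 1154 CPM in the cells, and miR-21a-5p at 104398 and 270537 ± 7062 CPM. let-7i-5p and let-7f-5p were higher in RAW EVs than in the cells, at 242571 CPM in RAW EVs against 69945 ± 2088 CPM in the cells and at 155605 against 53668 ± 2209 CPM. miR-3535 stood at 10898 CPM in RAW EVs and 378 ± 43.5 CPM in the cells. The plot of levels in EVs and cells shows these gaps side by side.

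**Figure D3:**
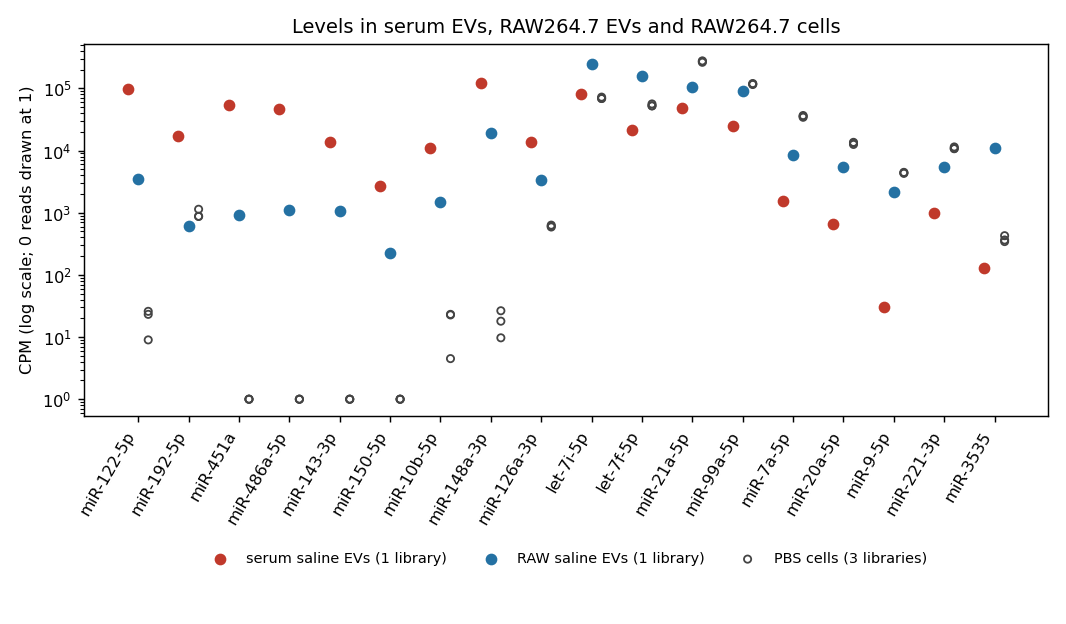
Level (CPM, log scale, 0 reads drawn at 1) of 18 named miRNAs in serum saline EVs (red, 1 library), RAW saline EVs (blue, 1 library) and RAW264.7 cells given PBS (open circles, 3 libraries). miR-451a, miR-486a-5p, miR-143-3p and miR-150-5p have no read in the cells and lie higher in serum EVs than in RAW EVs, and let-7i-5p and let-7f-5p lie highest in RAW EVs.

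The 2 arms of a hairpin did not always differ alike, a pattern chosen for description after its values were seen. In 46 hairpins with at least 100 reads of both arms in each saline EV library and over the cells, the arm that is rarer in the cells held a larger share in serum EVs in 16 and in RAW EVs in 22. Where the Wilson intervals did not meet, the share was larger in serum EVs in 3 and in RAW EVs in 11. In 16 of the 46 hairpins an arm is shared with another hairpin. The miR-25 hairpin gave 0 reads of miR-25-5p beside 4967 of miR-25-3p in serum EVs, and 114 beside 653 in RAW EVs. The rarer arm thus held 0% of both arms in serum EVs (upper limit 0.0773%), 14.9% in RAW EVs (12.5 to 17.6) and 1.40% in the cells. The arms of this hairpin were each at least 4-fold apart, in opposite directions.

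The miR-27a hairpin did the same. miR-27a-5p held 0.410% of both arms in serum EVs (0.229 to 0.733), 25.8% in RAW EVs (21.6 to 30.4) and 3.69% in the cells. miR-139-3p held 0.431% in serum EVs (0.0761 to 2.40), 38.6% in RAW EVs (33.4 to 44.2) and 2.96% in the cells. miR-30c-2-3p, miR-125a-3p and miR-128-1-5p held 0.639%, 0.971% and 0% in serum EVs and 23.4%, 26.1% and 11.8% in RAW EVs. For miR-423-5p the share was higher in serum EVs, at 51.5% (47.6 to 55.3) and 21.0% in RAW EVs (18.3 to 23.9). In the libraries made after Con A the intervals met for most of these arms. miR-25-5p held 0% in serum Con A EVs and 0.255% in RAW Con A EVs, miR-27a-5p 0.713% and 2.42%, and miR-139-3p 2.66% and 1.77%. The miR-423-5p share was then the lower one in serum EVs, at 52.6% in serum Con A EVs and 78.1% in RAW Con A EVs. miR-125a-3p and miR-99b-3p kept theirs, at 2.08% and 4.69% in serum Con A EVs and 45.5% and 37.8% in RAW Con A EVs. Over the 46 hairpins the intervals did not meet in 4 with the larger share in serum Con A EVs and in 5 with the larger share in RAW Con A EVs. Between the RAW EV libraries, 12 hairpins had a rarer arm share that was larger without Con A, intervals apart, so that these arms rest on the 1 RAW saline library.

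**Figure D4:**
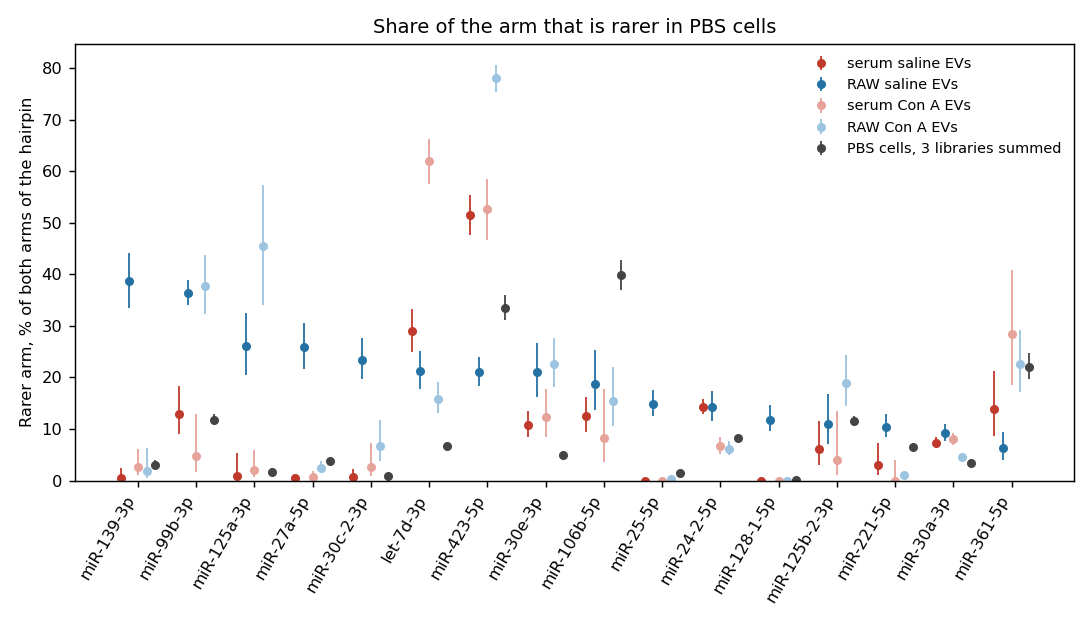
Share (%) of both arms of a hairpin held by the arm that is rarer in RAW264.7 cells, with Wilson 95% intervals, in serum saline EVs (red), RAW saline EVs (blue), serum Con A EVs (light red), RAW Con A EVs (light blue) and the 3 libraries of PBS cells summed (black), for the 16 hairpins at 5% or more in either saline library. miR-139-3p, miR-27a-5p and miR-25-5p are high in RAW saline EVs alone, and miR-99b-3p and miR-125a-3p are high in both RAW libraries.

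Of the 18 seeds shared by at least 2 compared names, 10 had all members on the same side of an even ratio and 8 had members on both sides. The seed UGACCUA (miR-192-5p and miR-215-5p) held 38492 CPM in serum EVs and 679 CPM in RAW EVs. The seed GAGGUAG of let-7, with members between -3.04 and 0.35, held 143745 CPM in serum EVs and 492286 CPM in RAW EVs, GCUACAU (miR-221-3p and miR-222-3p) 1794 and 10184 CPM, and GGAAGAC (miR-7a-5p and miR-7b-5p) 1885 and 14026 CPM. The seed ACAUUCA joined miR-181a-5p, at a log2 ratio of 2.95, with miR-181b-5p, at -0.20, and the 4 members of AAAGUGC lay between -3.77 for miR-17-5p and 0.32 for miR-106b-5p. Genes within 10 kb of each other also split. The cluster of Mir23a, Mir27a and Mir24-2 gave log2 ratios of 2.72 for miR-23a-3p, 3.06 for miR-27a-3p, 1.82 for miR-24-3p and -3.34 for miR-27a-5p.

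Base composition and short motifs were described with no test. Among names with a sequence, the median GC content was 45.5% in those higher in serum EVs, 47.8% in those higher in RAW EVs and 45.5% over all 125, and the median length 22.0, 22.5 and 22.0 bases. U was the first base in 14 of 30 names higher in serum, 11 of 26 higher in RAW EVs and 52.8% of all. The 4-letter motifs GGAG and CCCU, searched on the mature strand, were found as follows. GGAG was in 1 of 30 names higher in serum, 6 of 26 higher in RAW EVs and 9.60% of all. CCCU was in 2 of 30, 3 of 26 and 8.80% of all. 4 of the 6 GGAG names higher in RAW EVs were rarer arms, such as miR-25-5p and miR-139-3p.

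The EV libraries made after Con A give the same measure in libraries that the saline comparison did not use, at 15 mg/kg in mice and 25 µg/mL in RAW264.7 cultures. Of the 144 names, 110 had at least 50 reads in that pair. In it 9.09% were at least 4-fold higher in serum and 48.2% in RAW EVs, 57.3% in all. miR-122-5p and miR-148a-3p together held 81.8% of serum Con A reads and 28.5% of RAW Con A reads, against 22.0% of serum saline reads and 2.26% of RAW saline reads. The median log2 ratio in the Con A pair was -1.86, and 0.11 with totals that leave out these 2 names, an alternative chosen after seeing the data. The ratios of the pairs had a Spearman rho of 0.69 across the 110 names, a description with no test.

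All names higher in RAW EVs that could be followed lay on the RAW side after Con A, as did most names within 4-fold. Of the 28, 17 had enough reads after Con A, and 17 were at least 4-fold higher in RAW Con A EVs, or 11 with the totals that leave out miR-122-5p and miR-148a-3p. The other 11 fell under the minimum, among them miR-365-2-5p and miR-139-3p. These stood at 2448 and 1037 CPM in RAW saline EVs and at 14.8 CPM each in RAW Con A EVs. A name low in serum EVs could reach the minimum only through RAW Con A EVs, so the side of the 17 was partly fixed by it. Of the names within 4-fold in the saline pair, 66 had enough reads, with 5 above and 61 below an even ratio, or 34 and 32 with the other totals. miR-3535 had 38 reads in serum Con A EVs and 7055 in RAW Con A EVs (log2 ratio -8.85), and miR-9-5p had none and 91. let-7f-5p had a log2 ratio of -3.26 and miR-221-3p of -5.74. Of the 40 names higher in serum, 27 had enough reads after Con A, and 14 were above and 13 below an even ratio, or 23 and 4 with the other totals. 10 of them were at least 4-fold higher in serum Con A EVs and 4 in RAW Con A EVs, or 14 and 1 with the other totals. miR-451a stood at 3.84, miR-192-5p at 3.30 and miR-148a-3p at 2.47. miR-122-5p, at 0.91, had 131052 reads in serum Con A EVs and 28061 in RAW Con A EVs, where it reached 208038 CPM. miR-215-5p, with 102 and 24 reads after Con A, stood at 0.78, against 8.26 in the saline pair. The plot of both ratios shows the names higher in RAW EVs at the lower left and the names higher in serum spread over the right side.

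**Figure D5:**
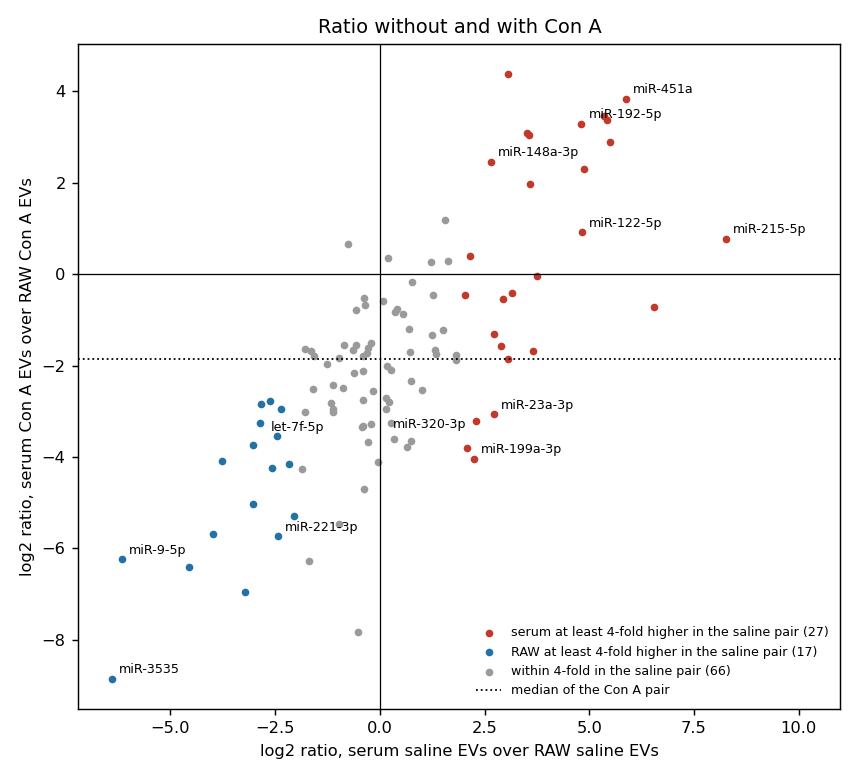
Log2 ratio of serum over RAW EVs after Con A (vertical) against the same ratio with saline (horizontal) for 110 miRNAs with at least 50 reads in each pair, 1 point a miRNA, coloured by the 4-fold call in the saline pair. The dotted line is the median of the Con A pair, -1.86. All 17 names higher in RAW saline EVs lie below an even ratio, while 27 names higher in serum saline EVs lie between -4.04 and 4.38.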

How the data were processed

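Small RNA libraries were made from EV and cell RNA and sequenced as single reads of 51 bp, per the labels' protocols. The EV table holds raw counts, whole reads for 941 mature miRNA names, as deposited. The aligner, miRNA annotation and genome build used by the authors were not given in the sources used here. Among tools, edgeR appears in the submitters' processing notes, with no version or role. The authors also deposited normalized signal values for serum and RAW EVs in separate tables, which in each library were the raw count divided by 1 whole number (126 for serum saline, 13 for RAW saline, as tested on the values). What these numbers count is not stated, and the signal values served as an alternative scaling only.

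CPM, ratios, exact conditional intervals and Wilson intervals (95%) were computed in Python 3.11.15 with pandas 2.3.3 and scipy 1.17.1, and tested on simulated data. TMM factors came from edgeR 4.0.16 in R 4.3.3. Names with at least 50 reads over both libraries were compared, a call was a ratio of 4-fold, and a library at 0 was set to 3 reads. Groups were taken from sample titles. Named miRNAs were the 15 highest and 15 lowest ratios among calls with at least 200 reads, the 12 most abundant of each library, up to 4 members of each of 31 lists and a panel of 8 blood, liver and macrophage miRNAs. Names outside this rule (let-7b-5p, let-7e-5p, miR-100-5p, miR-106b-5p, miR-122-3p, miR-125a-3p, miR-144-5p, miR-802-5p and names that appear only in the arm, cluster and motif descriptions or among miRNAs that differed oppositely after Con A) were chosen after their values were seen. Members and lists were chosen with earlier results of these data known, and the arm shares, the summary of EVs against cells and the totals without miR-122-5p and miR-148a-3p were added after seeing the data.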

Additional observations from a re-analysis of the deposited data

Results flagged for a closer look

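4 miRNAs were at least 4-fold higher in RAW EVs after Con A and at least 4-fold higher in serum EVs with saline, by shares of all miRNA reads. The log2 ratio of serum over RAW EVs was -4.04 after Con A and 2.25 with saline for miR-199a-3p, and -3.81 and 2.08 for miR-199b-3p, which has the same sequence and is no separate case. It was -3.06 after Con A and 2.72 with saline for miR-23a-3p, and -3.22 and 2.29 for miR-320-3p. With totals that leave out miR-122-5p and miR-148a-3p the Con A values were -2.06, -1.84, -1.08 and -1.24, so that 1 of the 4 names passed 4-fold on the RAW side. With the authors' scaling the saline values were -0.82, -0.997, -0.36 and -0.78, also on the RAW side. With 1 library in each group the difference between the pairs was not tested.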

How the results depend on the processing

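Scaling decides the side of many ratios. With the divisors of the authors' deposited tables, 14 names were at least 4-fold higher in serum (40 as reported) and 92 in RAW EVs (28), and 2 list medians were higher in serum (9) and 11 in RAW EVs (3). Of the ratios above 0 as reported, 49 of 76 compared names and 12 of 16 list medians turned. Among named miRNAs above 0, 27 of 50 miR names and 1 of 1 let-7 names turned, 28 in all. Those at least 4-fold higher in serum as reported were -0.0178 for miR-27a-3p, -0.42 for miR-148a-3p, -0.35 for miR-25-3p, -1.04 for miR-126a-3p, -0.00835 for miR-223-5p, -0.83 for miR-126a-5p, -0.82 for miR-199a-3p, -0.13 for miR-181a-5p, -0.19 for miR-10b-5p, -0.92 for miR-152-3p and -0.78 for miR-320-3p, and among list medians -0.83 (endothelial and platelet), -0.13 (stromal and smooth muscle), -1.05 (miR-322 cluster), -0.13 (miR-181 family) and -0.92 (miR-148/miR-152 family). By construction these divisors shift every ratio alike. TMM, median-of-ratios scaling and totals without the most abundant miRNA of each library moved the median log2 ratio by 0.12, 0.20 and -0.12, and turned 2 of 87 named ratios, 0 of them among the 51 called, while 2 of the 51 lost 4-fold. With no read minimum 70 names were higher in serum and 57 in RAW EVs, and with at least 200 reads 22 and 15, with 2 list medians higher in serum. A 2-fold limit gave 43 names higher in RAW EVs. The 10 most abundant names of serum EVs held 60.4% of reads with miR-486a-5p and miR-486b-5p summed, against 58.2%. Without miR-486b-5p the erythrocyte list held 10.5% of serum reads, against 15.1%. No paired analysis was possible because each EV group has 1 library, and for the same reason no replicate could be left out. Names with few reads are limited by depth, with 1 read worth a large step in CPM.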
